A study of Homo sapiens with 6 samples.

Results

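The receptor-interacting protein kinases are a family of serine/threonine kinases, and the transcripts of RIPK4, its relatives RIPK1, RIPK2, RIPK3, DSTYK, LRRK1 and LRRK2, and of the pseudokinase MLKL were followed here. The genes were taken by symbol from the table of counts, and 7 of the 8 had values, among 24526 genes in all. RIPK3 was not analysed here. The study transfected WM266.4 cells, an established human melanoma line, with negative control siRNA (neg.si, 3 libraries) or with siRNA against RIPK4 (RIPK4.si, 3 libraries), and sequenced mRNA libraries. Such siRNAs are small RNA duplexes through which a cell cleaves transcripts of matching sequence. All libraries came from transfected cells of the same line at a single time, and each group received a single siRNA product, so an effect of that product on other transcripts and an effect of RIPK4 loss cannot be told apart.

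RIPK1 carries a death domain and binds the activated TNF receptor complex, where it acts as a scaffold for NFκB signaling or, as a kinase, in cell death. RIPK3 phosphorylates MLKL, which then permeabilizes the plasma membrane in necroptosis, a lytic form of cell death. RIPK2 carries a caspase recruitment domain and transmits signals from the bacterial peptidoglycan sensors NOD1 and NOD2. RIPK4 has ankyrin repeats behind its kinase domain and is best known for keratinocyte differentiation and skin barrier formation. DSTYK is a dual-specificity kinase also called RIPK5. LRRK1 and LRRK2 are large proteins with leucine-rich repeats and a GTPase domain next to the kinase domain, and LRRK2, a Parkinson's disease gene, phosphorylates RAB GTPases.

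Because these genes are paralogues, the extent to which their sequences overlap was examined first. No stretch of 50 bases in any annotated transcript of a member occurred in a transcript of another member. The longest identical run between the coding sequences of RIPK4 and a paralogue was 16 bases, shared with RIPK1, followed by 15 bases with RIPK2 and 14 with DSTYK. The run shared with RIPK1 lies at the same part of both kinases, the hinge that joins the lobes of the kinase fold, and begins at codon 96 of RIPK4 and codon 92 of RIPK1. The stretches are shown 5′ to 3′ from the GENCODE 44 reference transcripts (GRCh38), with the shared run in capitals and 15 flanking bases on each side, because this is the longest run that RIPK4 shares with another member. The stretch of RIPK4 is chr21:41756683-41756728 on the minus strand, and that of RIPK1 is chr6:3077873-3077918 on the plus strand, each within 1 coding exon.
RIPK4: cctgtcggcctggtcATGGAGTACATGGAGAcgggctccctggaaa
RIPK1: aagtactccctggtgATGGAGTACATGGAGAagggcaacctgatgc

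The longest run shared by RIPK4 and MLKL, 12 bases, overlaps the same hinge, beginning at codon 95 of RIPK4 and codon 282 of MLKL. The stretches are chr21:41756690-41756731 and chr16:74682737-74682778, both on the minus strand and within 1 coding exon.
RIPK4: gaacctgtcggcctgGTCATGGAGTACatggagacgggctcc
MLKL: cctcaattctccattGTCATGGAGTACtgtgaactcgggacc

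Some members overlap other genes. Because the authors counted reads without regard to strand, reads of such genes could not be separated by strand. Of the 4.016 kb of RIPK4 exons, 461 bases (11.5%) overlap a long non-coding RNA on the opposite strand that was not analysed here. For RIPK1, 330 exon bases (2.71%) overlap a long non-coding RNA and 124 (1.02%) a ribosomal RNA pseudogene, both on the opposite strand. For LRRK1, 304 exon bases (1.74%) overlap one antisense transcript and 65 (0.372%) another. In RIPK2 the overlap was 7 bases, and in DSTYK, LRRK2 and MLKL no exon base overlapped another gene by position. By sequence, some stretches of 50 bases also occurred in transcripts of genes outside the family. Their share was 9.20% in RIPK4, 5.05% in LRRK1, 3.38% in RIPK1, 1.69% in DSTYK and 0.825% in MLKL. RIPK2 and LRRK2 had none.

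The libraries held 28464057 to 31688095 counts on genes. All 8 melanocytic markers examined (MITF, SOX10, PMEL, MLANA, TYR, DCT, TYRP1 and S100B) averaged above 1 CPM (counts relative to normalized library size). Their means ran from 12.8 CPM for MLANA and 31.9 CPM for TYRP1 to 1129 CPM for TYR. The summed level of the 8 was 3573 to 4012 CPM in neg.si and 2635 to 2759 CPM in RIPK4.si. These sums did not overlap between the groups, and the part of these marker differences in the results below was not tested. Of 5 keratinocyte markers 3 had values, with KRT5 and KRT14 at 0.136 and 0.0553 CPM and a summed level, mostly KRT10, of 10.2 to 11.6 CPM in neg.si and 11.8 to 16.1 CPM in RIPK4.si. The 5 leukocyte markers summed to 5.54 to 8.07 CPM in neg.si and 3.46 to 4.74 CPM in RIPK4.si, mostly ITGAM at 3.90 CPM and CD14 at 1.23 CPM, with PTPRC at 0.275 CPM and CD3E at 0.249 CPM. The keratinocyte and leukocyte sums did not overlap between the groups either. Of the libraries, neg.si replicate 3 lay farthest from the others on the first principal component (56.1, with the other 5 between -41.5 and 10.6). The rank correlation across genes between a library's deviation in level and gene GC content was -0.547 in that library and 0.555 in neg.si replicate 1. Genes are not independent replicates in such a correlation.

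RIPK4, the targeted gene (chromosome 21, 41739369 to 41767089, minus strand), was counted 2656, 2298 and 1739 times in neg.si, and 585, 482 and 670 times in RIPK4.si. Here and for the other genes the values stand in the order of the replicate numbers 1, 2 and 3. After scaling, these were 85.8, 76.5 and 54.7 CPM in neg.si and 19.9, 16.7 and 21.5 CPM in RIPK4.si. All RIPK4.si values were below all neg.si values, and the lowest neg.si value was that of replicate 3. RIPK4 fell from 72.3 ± 15.9 CPM (SD, n = 3) to 19.4 ± 2.48 CPM (SD, n = 3), so that 26.8% remained. This is a log2 fold change of -1.90, with a standard error of 0.203 and a 95% interval of -2.36 to -1.44 (Benjamini-Hochberg adjusted p = 0.0102, edgeR's quasi-likelihood test). The interval corresponds to a remaining level of 19.5% to 36.8%. In RNA from bulk cultures, fewer cells with the transcript and less of it per cell cannot be told apart. The exact two-sided permutation test gave p = 0.1, the smallest value that 3 libraries against 3 allow.

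The call of RIPK4 depended on which library was left out. The adjusted p-value of edgeR's quasi-likelihood test was 0.106 once neg.si replicate 2 was left out. It was 0.0940, 0.0622 and 0.0725 when RIPK4.si replicates 1, 2 and 3 were left out in turn. The call held when neg.si replicate 1 (0.0111) or 3 (0.000476) was left out. The 4 fits that lost the call of RIPK4 called 0 to 4 genes of all those tested, and the other 2 called 70 and 295. The log2 fold change lay between -2.06 and -1.74 over all 6 fits with a library left out.

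The other 6 members did not pass the test, and none had a level in RIPK4.si that lay clear of neg.si. Of the 7 members tested with edgeR's quasi-likelihood test, 1 was called at an adjusted p-value under 0.05, RIPK4, where 0.767% of all 16297 genes tested were called. DESeq2 also called 1 of the 7, with 2.91% of its genes called. At an unadjusted p-value under 0.05 the count was again 1 of 7, against 10.8% of all genes. Groups did not overlap in 1 of 7 members, against 17.6% of all genes tested. A log2 fold change below 0 was found in 6 of 7 members, including RIPK4, and in 53.4% of all genes. The median log2 fold change of the other 6 members was -0.19, and that of all genes tested was -0.02.

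**Figure D1:**
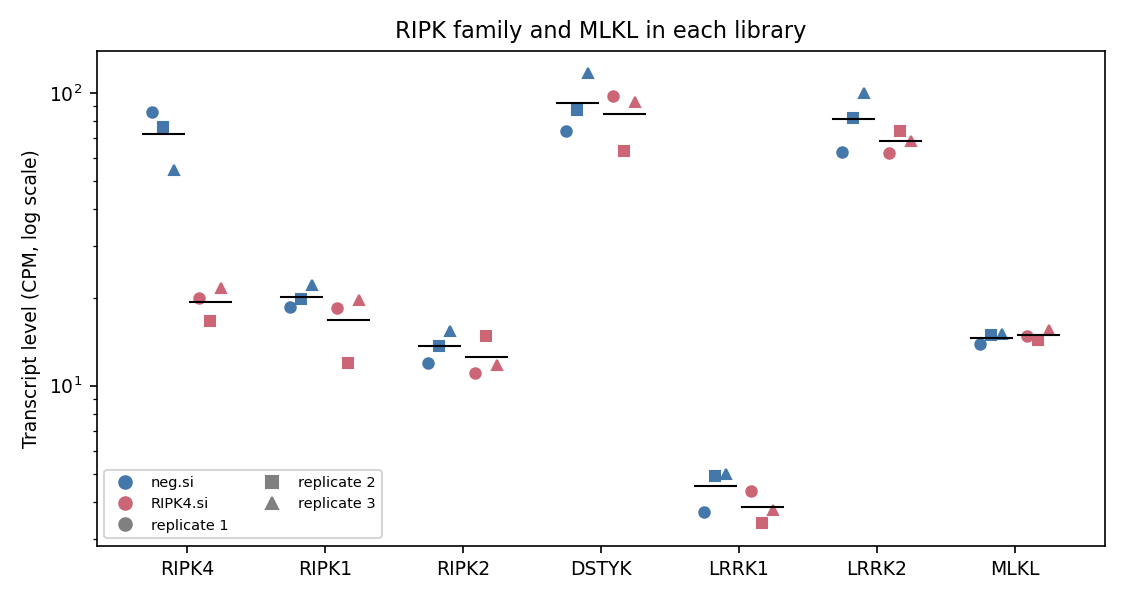
Transcript level in CPM (log axis) of the 7 members in each of the 6 libraries, with neg.si in blue, RIPK4.si in red, a marker shape per replicate and a black line at the group mean. RIPK4 is the only one of the 7 whose groups are apart, with the lowest neg.si library at 54.7 CPM and the highest RIPK4.si library at 21.5 CPM.

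Among the members with a role in cell death, RIPK1 (chromosome 6, 3063991 to 3115187, plus strand) had 18.5, 19.7 and 22.1 CPM in neg.si and 18.4, 12.0 and 19.7 CPM in RIPK4.si, from 346 to 701 counts a library. RIPK4.si replicate 2 was the lowest of the 6, and the other RIPK4.si libraries lay within or just under the neg.si range. The group means were 20.1 ± 1.81 CPM (SD, n = 3) and 16.7 ± 4.13 CPM (SD, n = 3). The log2 fold change was -0.27 (95% interval -0.74 to 0.21, adjusted p = 0.777, edgeR's quasi-likelihood test) and became -0.07 without RIPK4.si replicate 2.

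MLKL, the effector of necroptosis (chromosome 16, 74671855 to 74700960, minus strand), had the most even values of the family. Its levels were 13.9, 14.9 and 15.02 CPM in neg.si and 14.8, 14.4 and 15.5 CPM in RIPK4.si. The values of the groups were interleaved, and their means were 14.6 ± 0.611 CPM (SD, n = 3) and 14.9 ± 0.586 CPM (SD, n = 3). The coefficient of variation between replicates was 4.19% in neg.si and 3.94% in RIPK4.si, near the 4.73% that counting error alone gives at its 415 to 483 counts a library. The log2 fold change was 0.03 (95% interval -0.31 to 0.38, adjusted p = 0.980, edgeR's quasi-likelihood test), so a level in RIPK4.si of 80.5% to 129.8% of neg.si lies within the interval.

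RIPK2, the kinase of NOD signaling (chromosome 8, 89757806 to 89791064, plus strand), had 11.9, 13.7 and 15.4 CPM in neg.si and 11.1, 14.8 and 11.8 CPM in RIPK4.si. The groups overlapped over most of their range. The means were 13.7 ± 1.74 CPM (SD, n = 3) and 12.5 ± 1.97 CPM (SD, n = 3), a log2 fold change of -0.12 (95% interval -0.55 to 0.30, adjusted p = 0.916, edgeR's quasi-likelihood test). With single libraries left out it ranged from -0.25 (RIPK4.si replicate 2) to -0.02 (neg.si replicate 3).

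DSTYK (chromosome 1, 205142505 to 205211702, minus strand), the dual-specificity kinase, varied widely between replicates. It was measured at 73.9, 87.5 and 116.7 CPM in neg.si and 97.3, 63.1 and 92.8 CPM in RIPK4.si. The highest value was neg.si replicate 3 and the lowest RIPK4.si replicate 2, and among the other 4 libraries both RIPK4.si values were above both neg.si values. The log2 fold change of -0.13 (95% interval -0.63 to 0.36, adjusted p = 0.923, edgeR's quasi-likelihood test) rested on those extremes: it was 0.07 once neg.si replicate 3 was left out, and 0.05 when RIPK4.si replicate 2 was.

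LRRK2 (chromosome 12, 40196744 to 40369285, plus strand) had 63.0, 82.2 and 99.98 CPM in neg.si and 62.6, 74.4 and 68.5 CPM in RIPK4.si. All RIPK4.si values lay under the upper pair of neg.si values, while neg.si replicate 1 was almost level with the lowest RIPK4.si library. The means were 81.7 ± 18.5 CPM (SD, n = 3) and 68.5 ± 5.91 CPM (SD, n = 3). The log2 fold change was -0.25 (95% interval -0.68 to 0.17, adjusted p = 0.748, edgeR's quasi-likelihood test). It was -0.39 once neg.si replicate 1 was left out, and -0.08 when neg.si replicate 3 was.

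LRRK1 (chromosome 15, 100919327 to 101078257, plus strand), the relative of LRRK2, had the fewest counts of the members, 98 to 158 a library, and a counting error of 8.86%. Its levels were 3.71, 4.93 and 4.97 CPM in neg.si and 4.36, 3.39 and 3.76 CPM in RIPK4.si. A pair of neg.si libraries lay above all RIPK4.si libraries, and neg.si replicate 1 lay among them. The log2 fold change was -0.24 (95% interval -0.73 to 0.24, adjusted p = 0.815, edgeR's quasi-likelihood test). With single libraries left out it ranged from -0.35 (neg.si replicate 1) to -0.15 (RIPK4.si replicate 2).

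**Figure D2:**
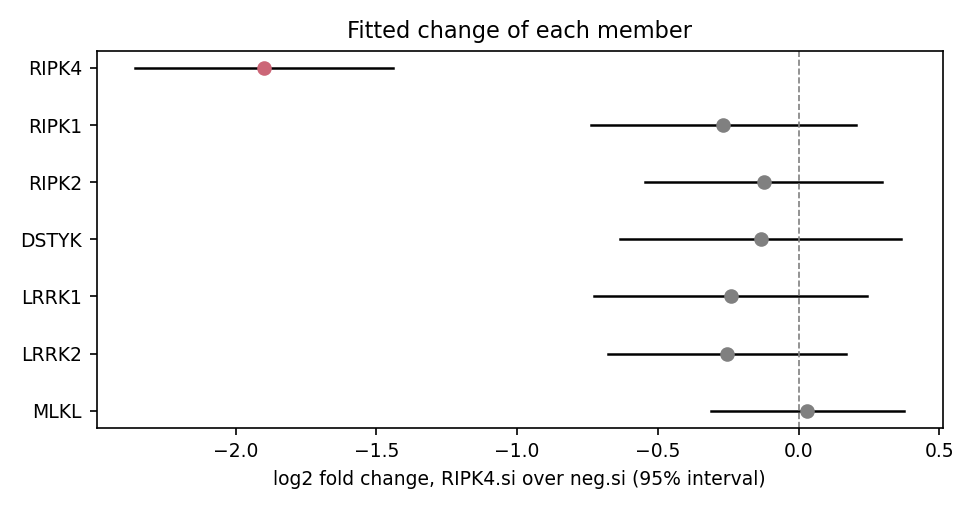
Log2 fold change of RIPK4.si over neg.si for the 7 members, with lines for the 95% interval of edgeR's fit, red for an adjusted p-value under 0.05 and grey otherwise. The interval of RIPK4 runs from -2.36 to -1.44, and the intervals of the other 6 all include 0 and end below 0.38.

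The members differ in base composition, and so did the libraries in the levels of GC-rich genes. From neg.si replicate 1 to neg.si replicate 3, the level of RIPK4, whose longest transcript has 58.5% GC, was 0.638-fold, while that of LRRK2 with 38.9% GC was 1.59-fold. The same ratio was 1.58-fold for DSTYK (47.1% GC), 1.34-fold for LRRK1 (52.8% GC), 1.29-fold for RIPK2 (41.6% GC), 1.19-fold for RIPK1 (48.3% GC) and 1.08-fold for MLKL (46.9% GC). RIPK4 was thus the one member of the 7 with a lower level in neg.si replicate 3 than in replicate 1. With the trend on GC content removed from each library, the log2 fold change of RIPK4 was -1.89 (edgeR's quasi-likelihood test, adjusted p = 0.000899), and those of the other members lay between -0.24 for LRRK1 and 0.07 for MLKL, none of them called.

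To compare genes with one another, levels were divided by the length of all annotated exons (CPM per kb). In neg.si, RIPK4 had the highest mean level, 18.0 ± 3.97 CPM per kb (SD, n = 3), ahead of DSTYK with 11.6 ± 2.73 CPM per kb (SD, n = 3), but their ranges overlapped and DSTYK was the higher in neg.si replicate 3. LRRK2 followed with 4.78 ± 1.08 and RIPK2 with 4.47 ± 0.569 CPM per kb (SD, n = 3), again with overlapping ranges. MLKL had 2.56 ± 0.107, RIPK1 1.65 ± 0.149 and LRRK1 0.259 ± 0.0409 CPM per kb (SD, n = 3), each range clear of its neighbours. Levels were also divided by the length of the MANE Select transcript instead, a choice made after seeing the data. By that length LRRK2 had a mean of 8.84, MLKL 5.89, RIPK2 5.43 and RIPK1 4.91 CPM per kb in neg.si. The means of MLKL and RIPK2 thus changed places, but RIPK2 was still the higher in neg.si replicate 3. In RIPK4.si, RIPK4 had 4.83 ± 0.616 CPM per kb of exon (SD, n = 3), a mean above RIPK2 with 4.10 ± 0.644 and LRRK2 with 4.01 ± 0.345 but with overlapping ranges and below both in replicate 2. DSTYK was the highest in each RIPK4.si library with 10.5 ± 2.32 CPM per kb of exon (SD, n = 3). By MANE Select length, RIPK4 with 5.06 CPM per kb in RIPK4.si was below LRRK2 with 7.41 and MLKL with 6.02, and LRRK2 was above DSTYK in RIPK4.si replicate 2.

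The other 6 members were also summed, to set their combined level beside the loss of RIPK4. RIPK4 made up 50.5%, 43.5% and 31.1% of the summed level per kb of the 7 members in the neg.si libraries, and 17.3%, 16.7% and 18.3% in the RIPK4.si libraries. The other 6 members together had 21.0, 24.7 and 30.2 CPM per kb in neg.si and 23.8, 20.8 and 24.0 CPM per kb in RIPK4.si. These sums overlapped between the groups, and the highest was that of neg.si replicate 3. On average the sum was 2.44 CPM per kb lower in RIPK4.si than in neg.si, as a description without a test, beside a loss of 13.2 CPM per kb for RIPK4. Without neg.si replicate 3 the difference of the sum was 0.00955 CPM per kb.

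**Figure D3:**
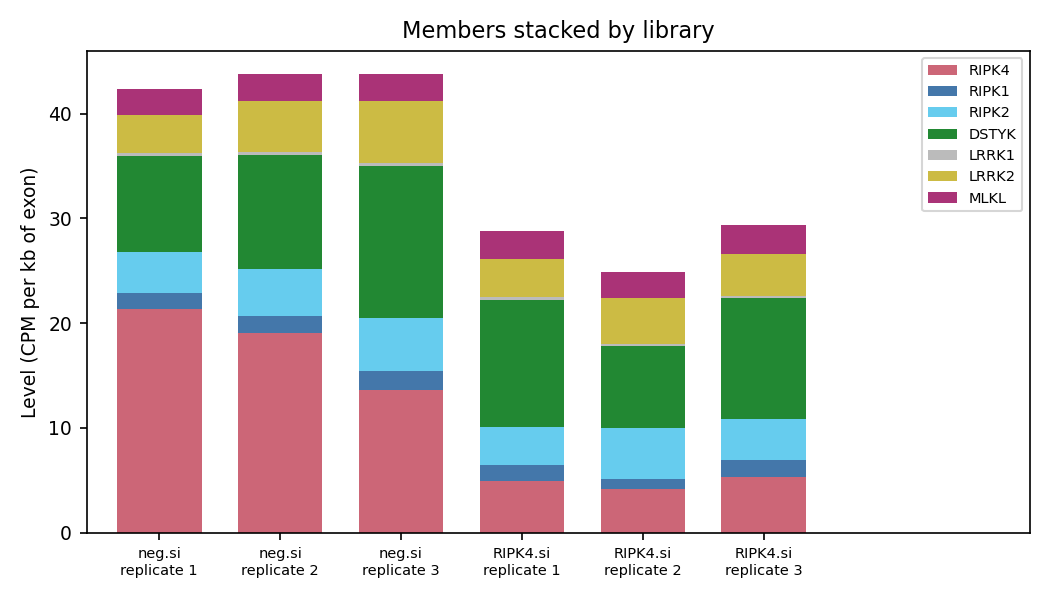
Level in CPM per kb of exon of the 7 members, stacked for each of the 6 libraries, with RIPK4 at the base of each bar. RIPK4 is 31.1% to 50.5% of the bar in neg.si and 16.7% to 18.3% in RIPK4.si, and the stack of the other members is between 20.8 and 30.2 CPM per kb in all libraries.

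For a single member to make up the loss of RIPK4 transcript per kb of exon, DSTYK would need a level 2.14-fold that of neg.si, LRRK2 3.76-fold, RIPK2 3.95-fold, MLKL 6.15-fold and RIPK1 8.99-fold, and LRRK1 51.8-fold. The upper ends of the 95% intervals were 1.29-fold for DSTYK, 1.12-fold for LRRK2, 1.23-fold for RIPK2, 1.30-fold for MLKL, 1.15-fold for RIPK1 and 1.18-fold for LRRK1. Each upper end lay under the rise in question. By MANE Select length, a choice made after seeing the data, the folds needed were 2.19 for DSTYK, 2.56 for LRRK2, 3.35 for MLKL, 3.54 for RIPK2, 3.81 for RIPK1 and 48.7 for LRRK1. These were also above the upper ends. These values concern transcript levels, and protein levels and kinase activity were not measured in these libraries.

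The direction of each change was followed over 15 fits, which included DESeq2, other normalizations and filters, removal of the GC trend and each library left out. RIPK4, RIPK1, RIPK2, LRRK1 and LRRK2 had a log2 fold change below 0 in 15 of 15 fits and MLKL in 0 of 15, whereas DSTYK had one below 0 in 13 of 15. The fits share libraries and are not independent of each other. The lowest adjusted p-value that edgeR's quasi-likelihood test or DESeq2 gave over these fits was 0.349 for LRRK2, 0.462 for RIPK1, 0.526 for LRRK1, 0.630 for DSTYK, 0.691 for RIPK2 and 0.866 for MLKL.

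**Figure D4:**
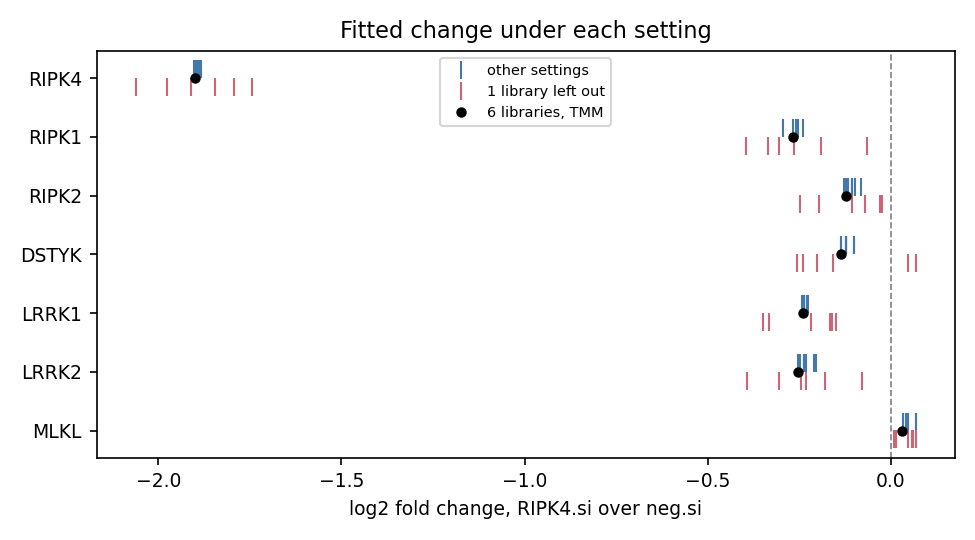
Log2 fold change of each of the 7 members under the setting reported (black), with 1 library left out (red ticks) and under the other settings (blue ticks). RIPK4 lies between -2.06 and -1.74 throughout, the other members lie between -0.40 and 0.07, and DSTYK has ticks on both sides of 0.

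The genes whose pattern over the 6 libraries was most like that of RIPK4 were found by the root mean square difference of log2 CPM, each gene centred on its own mean, among 13451 other genes with a mean of at least 1 CPM. They were SOX8 (0.194), PRTFDC1 (0.203), ZNF853 (0.227), HAS3 (0.227) and EXOC3L2 (0.245). SOX8, a SOXE transcription factor of the neural crest, had 33.7, 23.2 and 20.8 CPM in neg.si and 8.14, 7.93 and 7.88 CPM in RIPK4.si. Its neg.si values were highest in replicate 1 and lowest in replicate 3, as were those of RIPK4. The GC trend of the libraries was not removed from the levels compared here. HAS3, a hyaluronan synthase, had 18.7, 19.2 and 17.9 CPM in neg.si and 5.38, 5.82 and 5.85 CPM in RIPK4.si. This likeness is a description over 6 libraries that fall into the compared groups. Of the family, RIPK1 was the nearest at 0.846, which was place 1783, and MLKL the farthest at 0.986, place 6330.

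Further genes of the pathways around the family were examined as 4 lists, which were drawn up with earlier results of these data known and are not independent of them. In edgeR's quasi-likelihood test of all 6 libraries, without GC trend removal, 0 genes of the 4 lists had an adjusted p-value under 0.05. With the GC trend removed, the test called 3 genes of the RIPK1, RIPK3 and MLKL list and 2 of the NOD list. It then called 0 of the RIPK4 partner list and 1 of the LRRK list, beside 533 of all 16297 genes. The first list held 24 receptors, adaptors and regulators of the RIPK1, RIPK3 and MLKL pathway, all of which were tested. An unadjusted p-value under 0.05 was found for 3, with 2 at a higher and 1 at a lower level in RIPK4.si, beside 10.8% of all genes tested. DESeq2 called 3 of the 23 it gave an adjusted p-value, beside 2.91% of all genes. The median log2 fold change of the list was 0.05.

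TLR3, a receptor for double-stranded RNA upstream of RIPK1 and RIPK3, had 2.13, 4.50 and 4.69 CPM in neg.si and 6.75, 7.72 and 7.46 CPM in RIPK4.si (log2 fold change 0.95, standard error 0.288, adjusted p = 0.219 with edgeR and 0.0480 with DESeq2). CHMP3, a subunit of the ESCRT-III complex that repairs membranes, had 17.7, 21.1 and 26.2 CPM in neg.si and 37.5, 33.6 and 39.6 CPM in RIPK4.si (log2 fold change 0.77, standard error 0.182, adjusted p = 0.114 with edgeR and 0.00785 with DESeq2). BIRC3, the ubiquitin ligase cIAP2 that modifies RIPK1, had 45.9, 70.9 and 94.9 CPM in neg.si and 43.0, 29.6 and 42.9 CPM in RIPK4.si (log2 fold change -0.87, standard error 0.265, adjusted p = 0.220 with edgeR and 0.0465 with DESeq2). In all of these genes the groups did not overlap, although neg.si replicate 1 came close to RIPK4.si for BIRC3. Over the whole list the groups did not overlap in 4 of 24 genes, beside 17.6% of all genes tested. Once neg.si replicate 3 was left out, CHMP3 had an adjusted p-value of 0.0204 with edgeR, the one gene of the list called in that fit. That fit called 295 of 16586 genes in all. With any other library left out, the adjusted p-value of CHMP3 with edgeR was between 0.145 and 0.509. RNF31, the catalytic subunit of the linear ubiquitin ligase complex, was at 1.01 ± 0.261 CPM in neg.si and 0.783 ± 0.0490 CPM in RIPK4.si (SD, n = 3), with overlapping groups.

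The list around NOD1, NOD2 and RIPK2 held 18 genes, and 17 were tested. NOD2, a peptidoglycan sensor, stayed under the filter with at most 30 counts in a library. An unadjusted p-value under 0.05 was found for 2 of the 17, both with a lower level in RIPK4.si, and DESeq2 called 2, beside 10.8% and 2.91% of all genes. These were BIRC3 and IKBKB, the catalytic subunit IKK beta, which had 29.4, 26.9 and 28.1 CPM in neg.si and 19.6, 17.8 and 18.6 CPM in RIPK4.si (log2 fold change -0.59, standard error 0.147, adjusted p = 0.128 with edgeR and 0.0378 with DESeq2). The genes with the highest log2 fold changes, CARD6 (0.36) and the peptide transporter SLC15A3 (0.32), had overlapping groups. The median of the list was -0.07.

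Of the 14 genes on the list of RIPK4 partners and substrates, 7 were tested. The keratinocyte partners and regulators PKP1, TP63, GRHL3 and SFN were under the filter, with at most 12, 10, 15 and 5 counts in any library, and PRKCB reached 13. ANKK1, a close relative of RIPK4, had 3, 0 and 0 counts in neg.si and 1, 0 and 4 counts in RIPK4.si. No change of these genes was detectable at this depth. Among the genes tested, 1 of 7 had an unadjusted p-value under 0.05 (10.8% of all genes) and DESeq2 called 0 (2.91% of all genes). This was DVL3, a Wnt adaptor, with 56.7, 61.3 and 63.4 CPM in neg.si and 76.8, 78.7 and 82.8 CPM in RIPK4.si (log2 fold change 0.39, standard error 0.136, adjusted p = 0.301 with edgeR). Its relatives DVL1 (0.38) and DVL2 (-0.03) and the Wnt co-receptor LRP6 (-0.37) had overlapping groups.

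The list of LRRK1 and LRRK2 substrates and partners held 17 genes, all tested, with 2 at an unadjusted p-value under 0.05, both with a higher level in RIPK4.si (10.8% of all genes), and 1 called by DESeq2 (2.91% of all genes). RAB7A, the late endosomal GTPase that LRRK1 phosphorylates, had 118.2, 122.9 and 168.4 CPM in neg.si and 258.9, 187.1 and 243.5 CPM in RIPK4.si (log2 fold change 0.75, standard error 0.194, adjusted p = 0.141 with edgeR and 0.0138 with DESeq2). YWHAZ, a 14-3-3 protein gene, had 808.3, 860.4 and 931.2 CPM in neg.si and 978.4, 1339 and 1106 CPM in RIPK4.si (log2 fold change 0.40, adjusted p = 0.429 with edgeR and 0.358 with DESeq2). Once neg.si replicate 3 was left out, the adjusted p-value of RAB7A was 0.0252 with edgeR. With any other library left out, the adjusted p-value of RAB7A with edgeR was between 0.156 and 0.551. The groups of both RAB7A and YWHAZ were apart. Over the whole list the groups did not overlap in 3 of 17 genes, beside 17.6% of all genes tested. The lowest log2 fold changes of the list, SPAG9 (-0.37) and RAB3A (-0.27), belonged to genes whose groups overlapped. The median of the list was -0.01.

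**Figure D5:**
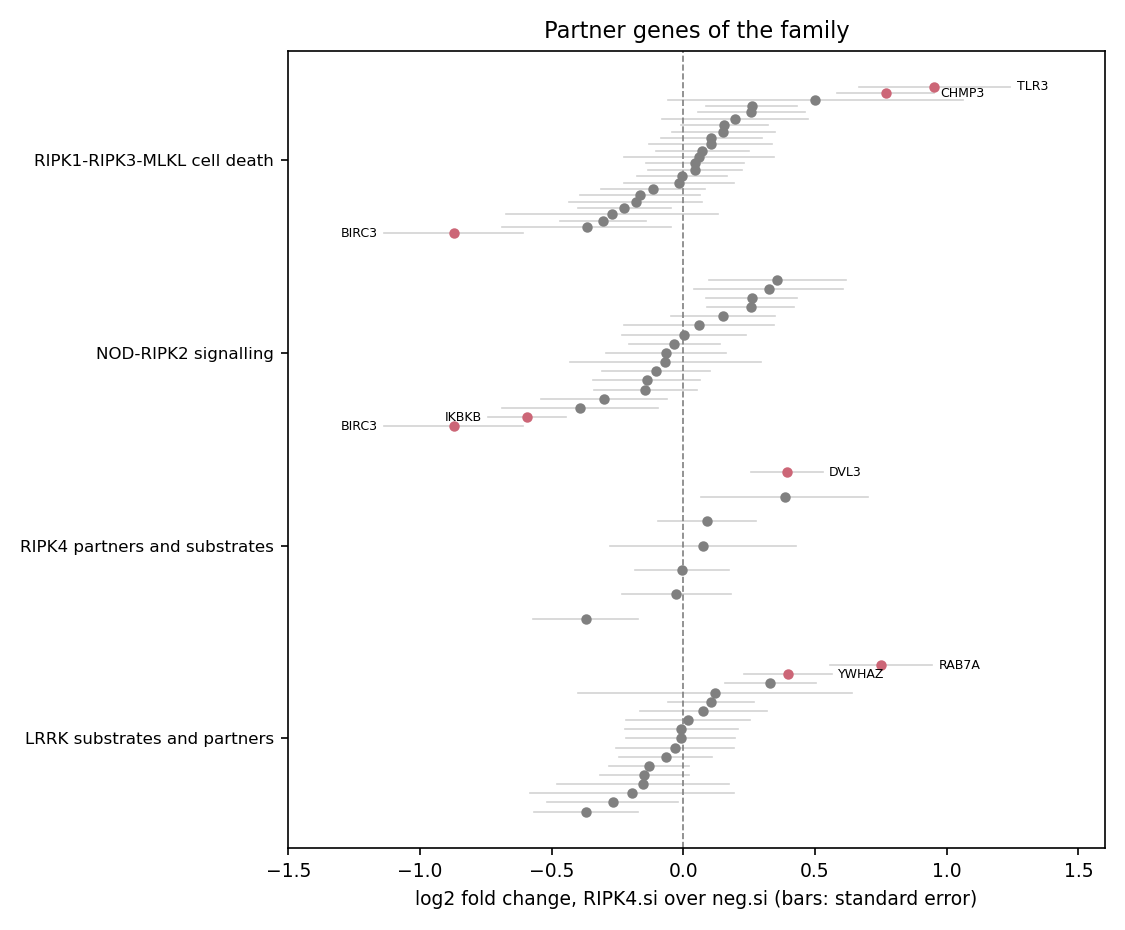
Log2 fold change of RIPK4.si over neg.si for each tested gene of the 4 partner lists, with bars of 1 standard error and red for an unadjusted p-value under 0.05. The genes in red run from BIRC3 at -0.87 to TLR3 at 0.95. None of the genes shown had an adjusted p-value under 0.05 in edgeR's test of all 6 libraries without GC trend removal.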

How the data were processed

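RNA was sequenced from 6 libraries of WM266.4 cells, 3 neg.si and 3 RIPK4.si, described by the study as biological replicates. Per the study's methods and processing notes, the authors used Cutadapt for trimming, TopHat for mapping (GRCh38.p13) and HTSeq, without strand, for counting. The deposited count values are whole numbers that are not normalized, for genes with at least 6 counts over the 6 libraries. The table also holds the authors' size-factor-normalized values, fold changes and p-values, which were not used. Groups were taken from the sample titles. The 8 members and the lists were chosen with earlier results of these data known.

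Counts were tested with edgeR 4.0.16 in R 4.3.3 (TMM, filter on low counts, quasi-likelihood test of group, Benjamini-Hochberg adjustment over 16297 genes). The test was also run on simulated counts with a single spread for all genes and no GC trend. Such counts cannot show how the test behaves under the GC differences between these libraries. Intervals are 95% intervals from the moderated fit. Alternatives were DESeq2 1.42.0, other normalizations and filters, a replicate block, each library left out and GC trends removed (lowess span 0.3). Annotation was GENCODE 44, which matched 24416 gene identifiers. The genes named were all members and, per list, those called or otherwise the 2 with the highest and the 2 with the lowest log2 fold change, and the 5 most like RIPK4. Counting error is that of the mean count. The values of 1 gene of a partner list are not reported here.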

Additional observations from a re-analysis of the deposited data

How the results depend on the processing

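The RIPK4 transcript level kept its direction in all 14 alternatives and was no longer called in 4, all of them with 1 library left out. Over the 6 fits with 1 library left out, the log2 fold change ranged from -2.06 to -1.74. The number of members called ranged from 0 to 1 with 1 library left out. DSTYK ranged from -0.26 to 0.07 with 1 library left out (0.0677 when neg.si replicate 3 was left out, 0.0477 when RIPK4.si replicate 2 was). Over all genes, 125 were called, against 437 with DESeq2, 533 with the GC trend removed, 434 with that and the replicate block, and 0 to 295 with 1 library left out. Genes called in the RIPK1, RIPK3 and MLKL list, 0 with edgeR, were 3 with DESeq2, 3 with the GC trend removed, 2 with that and the replicate block, and 0 to 1 with 1 library left out. In the NOD and RIPK2 list they were 2 with DESeq2, 2 with the GC trend removed, and 0 with that and the replicate block. In the LRRK list they were 1 with DESeq2, 1 with the GC trend removed, 1 with that and the replicate block, and 0 to 1 with 1 library left out. The count of 0 in the RIPK4 partner list did not move in 14 alternatives. The causes were not tested. The summed level of the other members was lower in RIPK4.si by a difference of -26.4 CPM when not divided by length, and ranged from -4.60 to 0.00955 CPM per kb with 1 library left out.

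The deviations of same-numbered libraries from their group means had correlations of -0.242, 0.251 and 0.346. Not every library correlated best with its own number. Such correlations over 3 libraries a group cannot decide whether the samples were paired. With the replicate block, RIPK4 had a log2 fold change of -1.88 (adjusted p = 0.00731 with edgeR), the calls among members were the same in number, and 131 genes were called in place of 125. No change was detectable at this depth in the partner genes under the filter on low counts.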
